A study of Mus musculus with 2 samples.

Results

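Ecrg4 and 9 genes by which cellular senescence is set or recognised (Cdkn1a, Cdkn2a, Cdkn2b, Trp53, Rb1, Lmnb1, Glb1, Hmga2 and Tert) were followed in a mouse neurosphere culture and in cells of the VZ/SVZ, the stem cell niche in the wall of the brain's ventricles (ventricular and subventricular zone). The members were the probes whose gene name in the scanner files equals one of these symbols, Ecrg4 being listed there as 1500015O10Rik. This gave 24 probes for 10 genes, of 56605 probes for 37008 gene names on the array. Both samples were labelled as brain cells of C57BL/6 mice aged 6 months, heterozygous for Ecrg4 and positive for beta-gal, and both were grown in DMEM/F12 with bFGF, EGF and heparin. The heterozygous allele is therefore shared by both groups, and no wild-type or homozygous sample was analysed here. Each group is 1 array, and the number of mice behind it, the brain region of the neurosphere, the passage number and the construction of the allele are not stated in the labels. Neither is the assay for beta-gal, so it is not known here whether the label refers to a reporter enzyme or to the endogenous lysosomal one.

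Senescence is a lasting exit from the cell cycle. Its main brakes are the cyclin-dependent kinase inhibitors p16Ink4a and p15Ink4b, which block Cdk4 and Cdk6 and so keep the retinoblastoma protein active, and p21, which p53 induces. Loss of lamin B1, a rise of lysosomal beta-galactosidase activity and secretion of cytokines and proteases are used as its marks. In neural stem cells, Hmga2 is known to hold down the Ink4a and Arf locus in young animals, and telomerase maintains chromosome ends. Ecrg4 encodes augurin, a secreted peptide precursor that is known as a tumour suppressor candidate and as a gene induced in senescent neural precursor cells.

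On an array each value belongs to one probe, so the sequences the results turn on are given first. Coordinates in this paragraph are mm9, as in the scanner files. The single Ecrg4 probe lies at chr1:43799321-43799380 on the plus strand, starting at base 799 of the transcript, and its first 30 of 60 bases are shown to identify it. The Trp53 probe is at chr11:69403134-69403193. Both Tert probes that gave signal are shown, at chr13:73779460-73779519 and chr13:73786429-73786488, the latter with the stop codon in capitals. For Cdkn1a the probe at chr17:29235299-29235358 is shown because it differs from the others: the files assign it to another Ensembl transcript, starting at base 147, and it holds the start codon (in capitals). The first 30 bases of an Hmga2 probe on the minus strand at chr10:119907346-119907405 identify the member probe with the widest difference.
Ecrg4 A_51_P404463, first 30 bases: caggctaaaggaaagaatataagtgctttt
Trp53 A_52_P491849: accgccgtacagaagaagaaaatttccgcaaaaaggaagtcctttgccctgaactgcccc
Tert A_55_P2745082: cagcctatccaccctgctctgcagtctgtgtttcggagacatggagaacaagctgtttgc
Tert A_51_P433778: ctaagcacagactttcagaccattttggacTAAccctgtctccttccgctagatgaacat
Cdkn1a A_55_P1976204: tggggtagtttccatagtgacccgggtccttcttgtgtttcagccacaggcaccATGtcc
Hmga2 A_55_P2717912, first 30 bases: tagtcattcctgggaactcttccactttgg

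A level below is log2 of the probe's processed signal (background-subtracted brightness) minus the 75th percentile of all probes on that array, which was a signal of 99.4 (neurosphere) and 106.1 (VZ/SVZ). A difference is neurosphere minus VZ/SVZ, so positive values mean more signal in the neurosphere. Each error after ± comes from the scanner's error model and covers neither animals nor cultures. Replicate spots of a probe count as independent in it. A probe with such spots therefore has a smaller error (0.06 for Lmna and Ctsl) without more arrays behind it. With 1 array a group there is no replicate, no test was made, and each difference describes these 2 arrays. Their number limits the precision. "Well above background" ("dim" where it fails) is the scanner software's own call, made for 61.2% (neurosphere) and 66.2% (VZ/SVZ) of probes, and the lowest bright signal was 5.20 and 5.93, respectively. No spot was saturated. The file headers give both arrays the same slide and the same scan time.

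All 10 genes had a probe well above background on at least 1 array, 9 of them on both arrays and Tert on the VZ/SVZ array alone. Ecrg4, Lmnb1 and Rb1, 3 of 10, exceeded 2-fold towards the neurosphere, where 11.1% of all 26434 measured genes were called in that direction. Tert was the 1 member at least 2-fold higher in VZ/SVZ, a direction that held 18.7% of all measured genes. The other 6, Cdkn1a, Cdkn2a, Cdkn2b, Trp53, Glb1 and Hmga2, lay within 2-fold by their brightest probe, as did 70.3% of all measured genes. Over all genes 2925 were called towards the neurosphere and 4935 towards VZ/SVZ, but 3629 and 3908 with quantile normalization. Of the 22 member probes bright on at least 1 array, 4 were past 2-fold towards the neurosphere, 4 towards VZ/SVZ and 14 lay within, against 11.8%, 18.3% and 69.9% of all 39705 such probes. The median difference was 0.17 over the members and -0.04 over all genes.

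**Figure D1:**
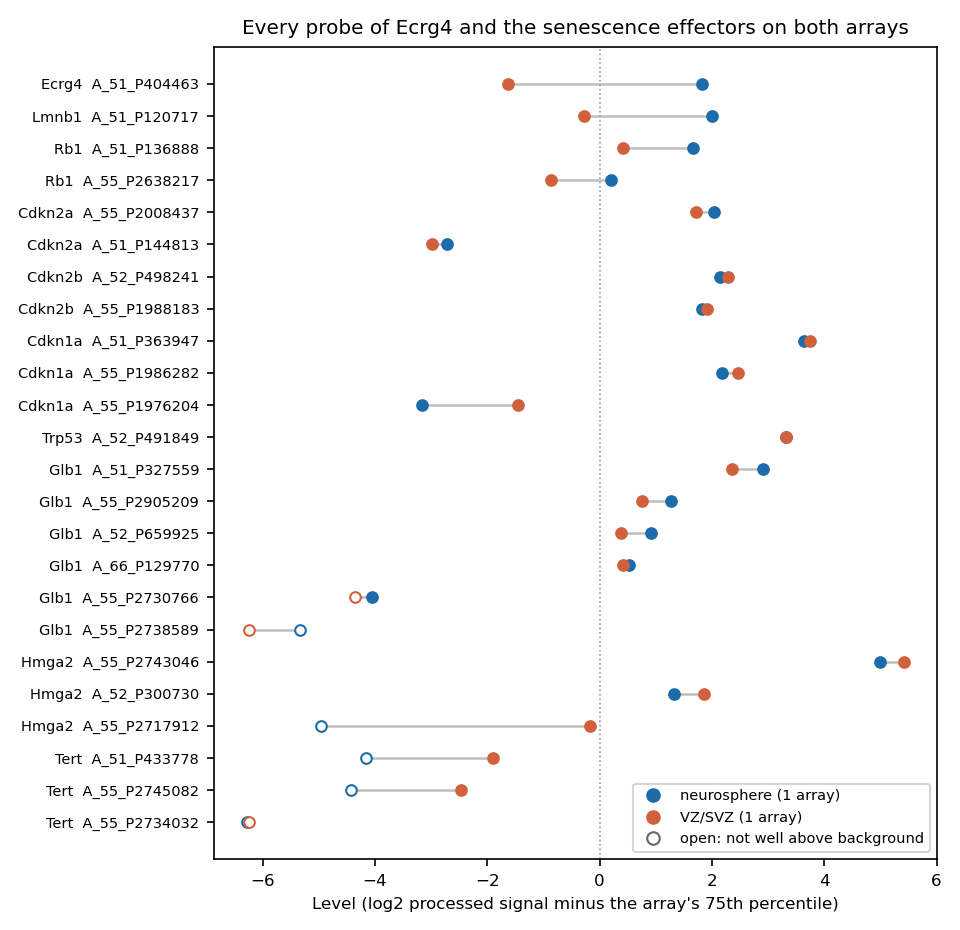
Level of each of the 24 member probes (x axis, log2 processed signal minus the array's 75th percentile) on the neurosphere array (blue) and the VZ/SVZ array (orange), with open points where a probe was not well above background. The 2 points of a probe lie far apart for Ecrg4, Lmnb1, the Cdkn1a probe A_55_P1976204, the Hmga2 probe A_55_P2717912 and 2 Tert probes, and close together for Trp53, Cdkn2a and Cdkn2b.

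Ecrg4 had the widest difference of the 10 genes that was measured on both sides. Its processed signal was 351.1 in the neurosphere and 34.0 in VZ/SVZ, well above background on each array. The levels were 1.82 and -1.64, so Ecrg4 was 11.0-fold higher in the neurosphere (3.46 ± 0.21). Of all measured genes, 94 (0.356%) were as far or farther towards the neurosphere. After normexp, a background correction whose offset of 50, as set here, compresses low signals, the difference was 2.21, or 4.62-fold. Genes with signals near or below that offset on both arrays can hardly pass 2-fold under normexp. For them, lying within 2-fold there does not measure the size of the difference. Which stretch of Ecrg4 the allele removes or replaces is not stated, so the Ecrg4 value is no check of the genotype.

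The 3 named genes bright on both arrays whose difference lay nearest to that of Ecrg4, over these 2 samples only, were Cdh4, which encodes R-cadherin (3.46), Reep1, a gene of endoplasmic reticulum shaping (3.47), and Rims4, of the family of presynaptic scaffold genes (3.47, with another of its probes at 1.26). Likeness here was the absolute gap between log2 differences, which was at most 0.014.

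Ecrg4 is a gene of ependymal and choroid plexus epithelium in the adult brain, so markers of both were set beside it. Of 7 ependymal markers 3 passed 2-fold towards the neurosphere, none towards VZ/SVZ, and their summed signal was 10.8 times the 75th percentile in the neurosphere and 2.68 times in VZ/SVZ. Foxj1, the regulator of motile cilia, had signals of 513.2 and 133.3 (4.11-fold, 2.04 ± 0.20). The ependymal markers did not all move with it: Rsph1 stood at -0.02 and Tmem212, dim on the neurosphere array, at -0.48. Of 8 choroid plexus markers 3, Ttr, Kl and Kcne2, were dim on both arrays. Of the other 5, Otx2 was higher in the neurosphere and 4 were higher in VZ/SVZ, with summed signals of 1.40 and 10.8. With normexp 2 of those 4, and not Otx2, were past 2-fold. Another Folr1 probe stood at 0.83 and another Enpp2 probe at 0.10, while the Otx2 probes ran from 0.43 to 1.85. The part of ependymal cells in the Ecrg4 difference was not tested. In bulk RNA, fewer cells of a type and less RNA per cell cannot be told apart.

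RefSeq's promoter table (GRCm38.p6) held 8 of the 10 genes. The 250 bases before the Ecrg4 start are shown because this gene carries the widest measured difference:
Ecrg4, chr1:43730352-43730601, plus strand: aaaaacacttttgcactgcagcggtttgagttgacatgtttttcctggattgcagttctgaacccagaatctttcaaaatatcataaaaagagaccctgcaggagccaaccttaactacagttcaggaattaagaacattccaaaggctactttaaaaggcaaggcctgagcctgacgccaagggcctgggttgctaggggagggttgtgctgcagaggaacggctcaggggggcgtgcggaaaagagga
The window had a GC content of 48.4% and 5 CpG. Searched on both strands, it held no GC box (GGGCGG), which 32.7% of 32851 windows of the same length held. It held no TATA box (TATAAA, in 12.4% of windows) and no CCAAT box (the letters CCAAT, in 33.8%). Nor did it hold an E-box (CACGTG, in 6.02%), an E2F site (TTTCCCGC, in 0.895%) or a cyclic AMP response element (TGACGTCA, in 1.55%). These are matches of letters and say nothing of a factor.

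Lmnb1 encodes lamin B1, the farnesylated lamin of the inner nuclear membrane whose loss marks senescent cells. Its 1 probe had signals of 399.7 in the neurosphere and 87.5 in VZ/SVZ. Lmnb1 was 4.88-fold higher in the neurosphere (2.29 ± 0.20; 1.78 with normexp), and 1.52% of measured genes lay as far or farther on that side. The other lamins did not share that size: Lmna, for lamins A and C, was 2.17-fold higher in VZ/SVZ (-1.12 ± 0.06, with its other probes down to -2.35), and Lmnb2 stood at -0.61 by one probe and 0.69 by the other.

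Rb1 encodes the retinoblastoma protein, which binds E2F factors and holds cells in G1. The brighter of its 2 probes had signals of 316.2 and 141.9, and Rb1 was 2.38-fold higher in the neurosphere (1.25 ± 0.20). The other probe gave 114.9 and 57.9, a difference of 1.08 ± 0.21. Both probes therefore lay on the same side of 2-fold, but normexp took the brighter one to 0.98, just inside it, and the other to 0.71, or 1.63-fold.

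The inhibitors encoded at the Ink4 and Arf locus were present in both samples at like levels. Cdkn2a gives p16Ink4a and, from another first exon, p19Arf, and both of its probes are listed with the transcripts of both proteins, so the 2 products were not separated. One Cdkn2a probe had signals of 408.2 and 349.2 (0.32 ± 0.20), the other 15.2 and 13.4, a difference of 0.27. Cdkn2b, for p15Ink4b, had signals of 437.1 and 515.3 by one probe (-0.14 ± 0.20) and 352.7 and 401.2 by the other (-0.09). Both differences of Cdkn2a exceeded their technical error and neither of Cdkn2b did, and none of the 4 probes reached 2-fold. With quantile normalization the brighter Cdkn2a probe stood at 0.16, inside its technical error, but the dimmer one at 0.72, beyond it. The Cdkn2b probes then stood at -0.34 and -0.26, both beyond theirs.

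Cdkn1a, the gene of the p53-induced inhibitor p21, was bright in both samples by its probe for both RefSeq transcripts, with signals of 1245 and 1416 (-0.09 ± 0.20). The probe for the first exon of transcript variant 2 gave 450.1 and 584.4, a difference of -0.28. The third probe, the one printed above for another Ensembl transcript, gave 11.1 and 38.7 and was 3.26-fold higher in VZ/SVZ (-1.70 ± 0.25). All 3 were well above background on both arrays, and with normexp the third stood at -0.49. Thus the probes of this gene pointed the same way but only the one assigned to another transcript passed 2-fold, and not with normexp. Which RNA that probe detected was not tested.

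RefSeq lists 2 starts for Cdkn1a in the promoter table. The 250 bases before each are shown because the array's probes are assigned to more than one transcript. The p53 response element is in capitals in the first window, and GGGCGG in the second.
Cdkn1a, chr17:29090729-29090978, plus strand: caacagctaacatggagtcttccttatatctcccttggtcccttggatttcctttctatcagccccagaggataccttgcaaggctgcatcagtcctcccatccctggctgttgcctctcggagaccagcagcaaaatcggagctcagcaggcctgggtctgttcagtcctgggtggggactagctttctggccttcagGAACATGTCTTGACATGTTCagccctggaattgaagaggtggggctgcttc
Cdkn1a, chr17:29093519-29093768, plus strand: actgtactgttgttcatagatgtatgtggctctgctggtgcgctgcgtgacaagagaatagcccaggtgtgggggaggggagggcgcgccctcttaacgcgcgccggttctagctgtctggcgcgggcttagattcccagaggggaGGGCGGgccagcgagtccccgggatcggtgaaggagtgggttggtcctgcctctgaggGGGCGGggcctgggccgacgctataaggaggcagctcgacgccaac
The element (the p53 consensus without a spacer, at most 1 mismatch in 20 bases, both strands) began 51 bases before the start with 1 mismatch. It was found in 25 of 32851 windows (0.0761%). The second window held GGGCGG at 2 places and 19 CpG, against 2 CpG in the first.

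Trp53, which encodes p53, did not differ beyond the technical error. Its probe gave signals of 995.6 (neurosphere) and 1052 (VZ/SVZ), or levels of 3.32 and 3.31 (0.01 ± 0.20). With quantile normalization, which forces both arrays to one distribution, the difference was -0.24.

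Glb1 encodes the lysosomal beta-galactosidase whose activity is stained as a mark of senescence. Of its 6 probes, 4 were well above background on both arrays, and all 4 were somewhat brighter in the neurosphere. The brightest had signals of 742.4 and 546.2 (1.45-fold, 0.54 ± 0.20), and another had 187.6 and 137.9, a difference of 0.54. The remaining pair of bright probes stood at 0.52 and 0.11. One further probe was dim on the VZ/SVZ array and one on both. No Glb1 probe bright on both arrays reached 2-fold.

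Hmga2 encodes a chromatin protein of the AT-hook type. Its brightest probe had signals of 3145 and 4541 (-0.44 ± 0.20), and a second gave 249.1 and 385.6 (-0.54 ± 0.20), so both were somewhat brighter in VZ/SVZ but within 2-fold. The third probe, A_55_P2717912, is assigned to another Ensembl transcript, 107 kb from the brightest probe. It had a signal of 3.20, not well above background, in the neurosphere and 93.7 in VZ/SVZ. By this probe the difference was at least 16.9-fold towards VZ/SVZ (-4.08), or -1.22 with normexp. The probes of Hmga2 therefore had one direction and unlike sizes.

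Tert encodes the catalytic subunit of telomerase. The 2 probes printed above gave 5.58 and 4.62 in the neurosphere, not well above background, and 28.4 and 19.2 in VZ/SVZ, where both were. Tert was thus higher in VZ/SVZ by 4.76-fold on the brighter probe (-2.25 ± 0.41) and at least 3.46-fold on the other (-1.79). The first is a measured ratio and no bound, because its dim neurosphere signal lay above the lowest bright signal of 5.20. The third Tert probe, from a cDNA clone, was dim on both arrays at signals of 1.27 and 1.41. These signals lie near background. With normexp the brighter probe stood at -0.34, but its signals were below the offset of 50 on both arrays, so 2-fold was hardly reachable there.

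**Figure D2:**
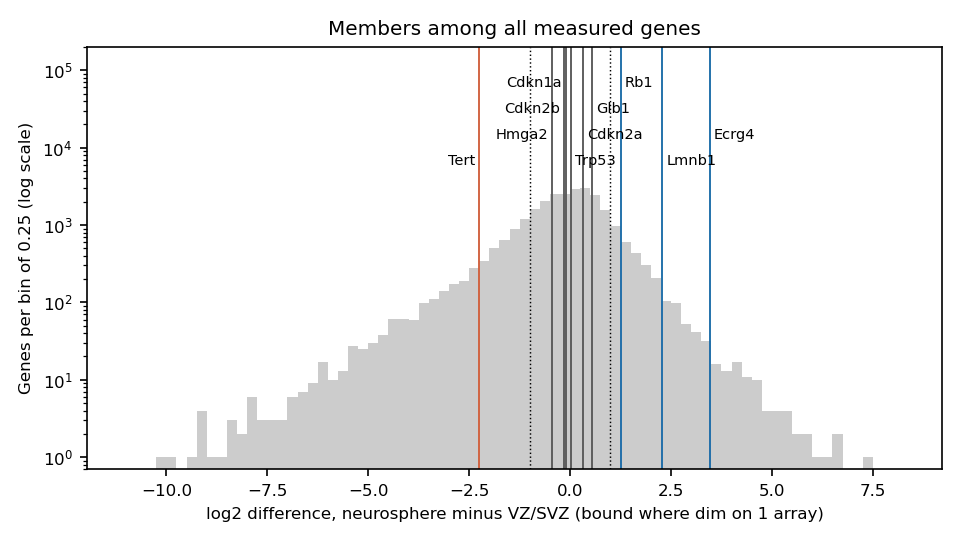
Histogram of the log2 difference (neurosphere minus VZ/SVZ) of all 26434 measured genes, with the count of genes per bin on a log axis, vertical lines at the 10 members and dotted lines at 2-fold. Ecrg4 (3.46), Lmnb1 (2.29) and Rb1 (1.25) lie right of 2-fold, Tert (-2.25, dim on the neurosphere array) lies left of it, and the other 6 lie between.

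The pathway around the members was read from lists of genes, given as counts at 2-fold beside the shares of all measured genes above (11.1% higher in the neurosphere and 18.7% higher in VZ/SVZ). List counts under normexp have a smaller background: 1268 (neurosphere) and 1470 (VZ/SVZ) of all 26434 genes were past 2-fold in that setting. Among 5 other cyclin-dependent kinase inhibitor genes, 3 passed 2-fold towards the neurosphere and 1 towards VZ/SVZ. Cdkn3, which encodes a phosphatase of Cdk2, was 5.92-fold higher in the neurosphere (2.57 ± 0.21), Cdkn2d, for p19Ink4d, 3.25-fold (1.70 ± 0.20) and Cdkn1b, for p27, 2.46-fold (1.30 ± 0.20, another probe at 0.79). The single probe of Cdkn1c, for p57, was higher in VZ/SVZ by at least 25.3-fold, at signals of 2.08 and 140.1, but its difference was -1.73 with normexp against -4.66 without. Normexp took Cdkn3 to 1.70. Bounds given as "at least" hold for the processed signal and not under normexp.

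Among 15 kinases, cyclins and partners of the Ink4 proteins and Rb1, 4 passed 2-fold towards the neurosphere and 1 towards VZ/SVZ (median 0.67). Cdk6, a kinase that p16Ink4a and p15Ink4b inhibit, was 18.2-fold higher in VZ/SVZ (-4.19 ± 0.28), at signals of 9.38 and 182.5, and both of its other probes stood on the same side. With normexp its difference was -1.70. Its companion kinase Cdk4 stood at 0.83. Cyclin D1 (Ccnd1) was 2.74-fold (1.45 ± 0.20) and Cdk2 2.73-fold (1.45 ± 0.21) higher in the neurosphere. The Rb1 relative Rbl1 stood there too (2.89-fold, with probes from 0.72 to 2.13). Lin54, a DNA-binding subunit of the complex that represses cell cycle genes, stood at 1.25. Of these 4, normexp left only Ccnd1 past 2-fold.

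Of 14 E2F target genes 9 passed 2-fold towards the neurosphere and none towards VZ/SVZ, and their median was 1.68 (1.19 with normexp). Ccna2, cyclin A2, was 7.02-fold higher (another probe at 1.23), and the proliferation marker gene Mki67 4.97-fold. Tk1, thymidine kinase, was 4.68-fold higher, with its 5 probes running from -0.95 to 2.52. E2f1 itself stood at 0.04.

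Of 13 regulators of p53, 3 were past 2-fold on each side, or 1 on each side under normexp. The checkpoint kinase genes Chek1 (2.81-fold), Chek2 (2.25-fold) and Atm (2.07-fold) were higher in the neurosphere. Mdm2, the ubiquitin ligase that p53 both induces and is degraded by, was 2.22-fold higher in VZ/SVZ (-1.15 ± 0.20). Trp73 (4.69-fold) and Atr (4.75-fold) were also higher there by their brightest probe, but the probes of Atr ran from -2.25 to 0.53 and those of Trp73 from -2.23 to -0.38. With normexp Atr stood at -0.82 and Trp73 at -0.77, both within 2-fold.

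Among 26 p53 target genes, 7 passed 2-fold towards VZ/SVZ, 1 towards the neurosphere and 18 neither way (median -0.08). Perp, an apoptosis and adhesion effector, was 8.95-fold higher in VZ/SVZ (-3.16 ± 0.21), Gdf15, a stress cytokine, 7.36-fold (-2.88 ± 0.21) and Tnfrsf10b, a death receptor gene, 3.97-fold. Plk3, a stress-responsive kinase gene, was at least 3.35-fold higher there, but stood at -0.26 with normexp. Normexp left 5 of the 7 past 2-fold, with Perp at -2.54 and Gdf15 at -1.57. Sesn1, a sestrin gene, was the one target past 2-fold towards the neurosphere (5.20-fold, 2.38 ± 0.21). Like Cdkn1a, the common targets Ccng1 (0.39), Bax (0.48), Zmat3 (0.23) and Gadd45a (0.06) lay within 2-fold. Pmaip1 (-1.47, or -1.34 with normexp) and Mdm2 (-1.15, or -1.13 with normexp) did not, both being higher in VZ/SVZ.

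Of 22 regulators of the Ink4 and Arf locus, 7 passed 2-fold towards VZ/SVZ and 4 towards the neurosphere, or 4 and 1 under normexp. The T-box repressor genes Tbx3 and Tbx2 were 24.1-fold (-4.59 ± 0.27, another probe at -5.84) and 5.27-fold (-2.40 ± 0.34) higher in VZ/SVZ. The Polycomb gene Pcgf2 was 9.12-fold higher there (its other probe close to 2-fold) and the demethylase gene Kdm6b 3.76-fold (another probe at -0.69). With normexp Tbx3 stood at -2.68 and Pcgf2 at -1.37, while Tbx2 (-0.52) and Kdm6b (-0.71) were within 2-fold. Towards the neurosphere stood the Polycomb genes Cbx2 (at least 5.56-fold), Ring1 (2.12-fold) and Ezh2 (2.11-fold, with probes from 0.85 to 1.46), all 3 within 2-fold under normexp. Bmi1, the best-known repressor of Cdkn2a in neural stem cells, was 1.998-fold higher in the neurosphere and thus just inside the limit.

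Genes of the senescence-associated secretory phenotype had the widest median difference of the 12 lists. Of 52 measured, 35 passed 2-fold towards VZ/SVZ and 3 towards the neurosphere, with a median of -2.55 (5.86-fold). Over the 39 bright on both arrays the median was -2.53, and with normexp, which left 27 past 2-fold towards VZ/SVZ, it was -1.28. The matrix protease genes Mmp3 and Mmp10 exceeded their neurosphere bound at least 1137-fold and 144-fold in VZ/SVZ, where the osteopontin gene Spp1 was 526-fold and the activin subunit gene Inhba 184-fold higher. With normexp these differences shrank to -6.68 for Mmp3, -3.83 for Mmp10, -7.65 for Spp1 and -5.13 for Inhba. In the opposite direction stood the chemokine genes Cxcl5 (8.45-fold) and Cxcl10 (5.52-fold) and Igfbp2 (3.48-fold), with Cxcl10 at 1.03 under normexp. Il6 was higher in VZ/SVZ by at least 5.60-fold, but stood at -0.52 with normexp, while Il1a, Ccl3, Mmp9, Mmp13, Csf2, Csf3 and Wnt2 were dim on both arrays.

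Fibroblasts and endothelial cells express many of these secretory genes, and their markers moved to the same side. All 8 fibroblast markers were higher in VZ/SVZ (median -7.68), with summed signals of 0.593 times the 75th percentile in the neurosphere and 114.7 times in VZ/SVZ. Of 7 endothelial markers 6 were higher in VZ/SVZ, with summed signals of 0.375 and 10.3. Of the fibroblast markers Col1a1, Col3a1, Dcn, Lum and Pdgfrb were not well above background in the neurosphere. Their part in the difference of the secretory genes was not tested. Of 8 microglia and macrophage markers none passed 2-fold, while the defining genes Tyrobp, C1qa, P2ry12 and Cx3cr1 were dim on both arrays.

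**Figure D3:**
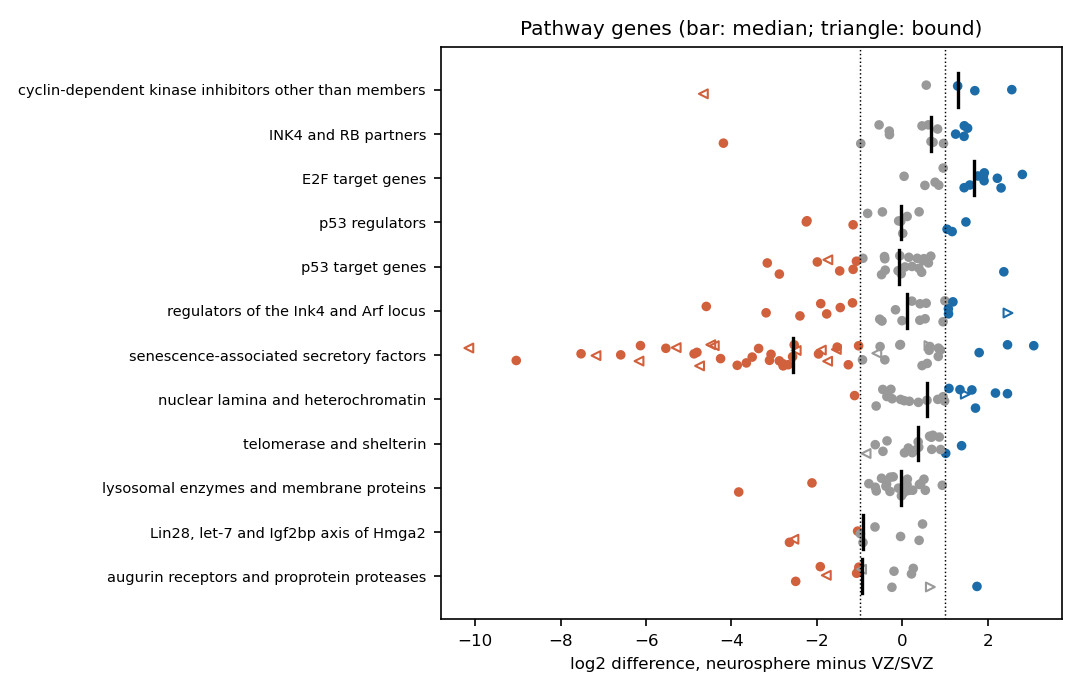
Each point is the log2 difference (neurosphere minus VZ/SVZ) of a measured gene of the 12 lists, coloured past 2-fold (dotted lines), with triangles for bounds and a black bar at the list median. The secretory factors extend farthest towards VZ/SVZ (median -2.55) and the E2F targets lie towards the neurosphere (median 1.68).

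Among 21 genes of the nuclear lamina and heterochromatin, 7 passed 2-fold towards the neurosphere and 1, Lmna, towards VZ/SVZ (median 0.58). Hmgb2, a chromatin protein gene that falls in senescence, was 5.52-fold higher in the neurosphere (2.46 ± 0.20, its 4 probes from 2.36 to 2.94). The histone gene H2ax was 4.54-fold, the lamina-associated gene Tmpo 3.28-fold and Banf1, which bridges chromatin and the lamina, 3.10-fold higher there.

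The telomerase and shelterin genes lay nearly all within 2-fold, 16 of 18 measured, with none higher in VZ/SVZ. Terf1, a telomere repeat binding protein gene, was 2.02-fold and the helicase gene Rtel1 2.62-fold higher in the neurosphere, but the probes of Rtel1 ran from -2.56 to 1.39 and normexp put both within 2-fold. Terc, the RNA template that works with Tert, stood at -0.36, and the RNA-binding subunit gene Dkc1 at 0.05, with its other probe at 1.01.

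Glb1 stood among lysosomal genes of like behaviour: 23 of 25 lay within 2-fold, and the median was -0.02. The 2 exceptions were the cathepsin genes Ctsl (14.2-fold, -3.83 ± 0.06) and Ctsb (4.33-fold, -2.11 ± 0.20), both higher in VZ/SVZ. Ctsa, which encodes the protective protein that binds the Glb1 enzyme, stood at -0.02, with its other probe at -1.20.

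Next came 9 genes tied to Hmga2 through the Lin28 proteins, the microRNA pathway and the Igf2bp family. Of these, none passed 2-fold towards the neurosphere and 3 towards VZ/SVZ. Lin28a was 6.24-fold higher there (-2.64 ± 0.32, another probe at -0.63), Igf2bp1 at least 5.81-fold and Igf2bp3 2.06-fold. Signals in the neurosphere were 7.68, 1.11 and 28.4, and with normexp none of the 3 passed 2-fold.

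Candidate augurin receptors and proprotein proteases were counted last. Of 13 measured, 6 passed 2-fold towards VZ/SVZ and 1 towards the neurosphere, or 1 (Scarf2, at -1.09) and 0 under normexp. The scavenger receptor gene Scarf2 was 5.64-fold higher in VZ/SVZ (-2.50 ± 0.22) and Scarf1 2.10-fold, while Cd36 was 3.36-fold higher in the neurosphere (1.75 ± 0.25). The prohormone convertase genes Pcsk2 (3.78-fold) and Pcsk1 (at least 3.43-fold) were higher in VZ/SVZ, and Furin, which is widely expressed, stood at -0.19. Olr1 and Stab1 were dim on both arrays.

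The labels were read against neural stem cell markers. All 10 were measured, 4 of them past 2-fold towards the neurosphere and 1 towards VZ/SVZ. Nes was 3.51-fold and Sox2 2.43-fold higher in the neurosphere. The brightest Slc1a3 probe was 14.9-fold higher there, with all its probes from -0.74 to 3.90, and Fabp7 was 2.12-fold higher. Prom1 was 2.04-fold higher in VZ/SVZ (-0.53 with normexp). Gfap (-0.92, another probe at -5.13), Hes5 (-0.70) and Pax6 (-0.32, with probes up to 2.12) stood on the VZ/SVZ side within 2-fold. Of the neuronal markers Rbfox3 was dim on both arrays, and 3 of the other 7 were higher in VZ/SVZ. Of 8 oligodendrocyte lineage markers 2 were higher in the neurosphere, Olig2 (3.46-fold) and Cnp (2.83-fold, another probe at 0.10), and Pdgfra was higher in VZ/SVZ (at least 75.5-fold, another probe at -1.14, and -3.03 with normexp).

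**Figure D4:**
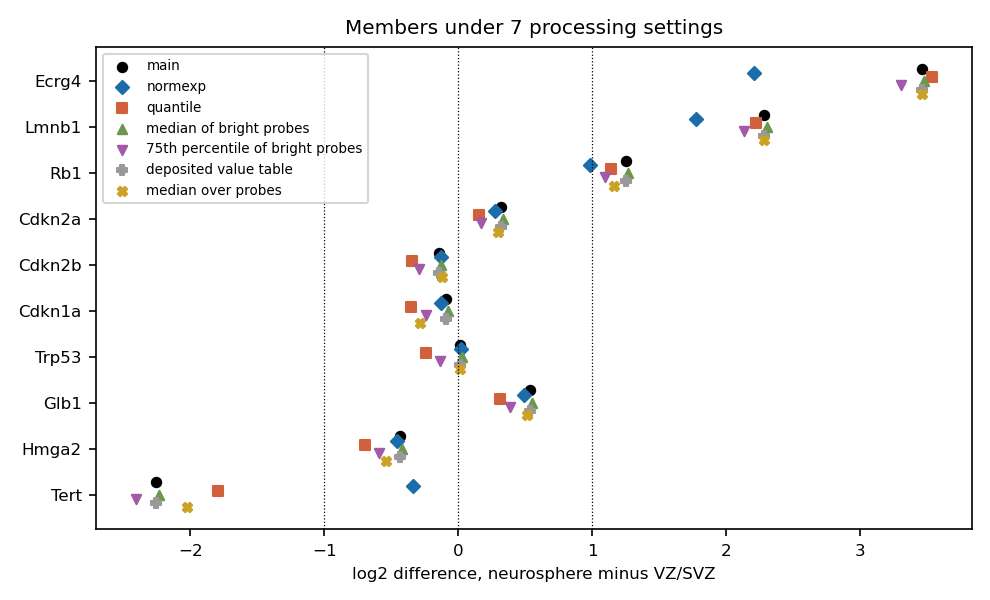
Log2 difference (neurosphere minus VZ/SVZ) of each member under the main setting and 6 alternatives, with dotted lines at 0 and 2-fold. Ecrg4 and Lmnb1 stay right of 2-fold in all 7, Rb1 falls to 0.98 and Tert to -0.34 with normexp, and the other 6 stay within 2-fold.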

How the data were processed

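Each of 2 mouse RNA samples, labelled with Cy3, has 1 one-colour Agilent array, per the labels. The authors' scanner files hold an intensity per spot, made with Feature Extraction 11.5.1.1 (per the file headers; the submitters' processing notes name version 9.1), background-subtracted and not scaled between arrays. The deposited value table matched these intensities (5th and 95th percentile of the ratio 0.998 and 1.002 on both arrays, column medians 12.95 for the neurosphere and 18.55 for VZ/SVZ, so linear and uncentred). Its link to the samples is by accession, and no part of its scale, centring or direction stayed unknown.

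Control spots and spots marked non-uniform or population outliers were left out. A level is log2 of the processed signal minus the array's 75th percentile over probes, with replicate spots averaged. A difference is neurosphere minus VZ/SVZ. A gene took its brightest probe on average among those well above background on at least 1 array. For a gene dim on 1 array, the dim side took the higher of its own value and the lowest level of any bright probe there. The difference is a bound where that lowest level was used. Members were matched by the gene name in the scanner files. Other probes were named through RefSeq (GRCm38.p6): 32977 by accession, 10217 by symbol and 520 by synonym, while 12867 kept the file's name. Genes were counted at 2-fold. With 1 array a group no test was possible. The steps were also run on simulated arrays, copies of the VZ/SVZ array with added noise and planted shifts. Such copies lack the real difference between the arrays, so they bear only on the recovery of planted shifts. The software was Python 3.11.15, with limma 3.58.1 for normexp.

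The members and gene lists were chosen with earlier results of these data known. Genes named are every member, up to 4 genes past 2-fold in each direction of each list, and the 3 genes nearest to Ecrg4. Cell type markers are named beside the results they were set against. Lmnb2, Cdk4, E2f1, Ccng1, Bax, Zmat3, Gadd45a, Pmaip1, Bmi1, Il6, Terc, Dkc1, Ctsa and Furin fall outside this rule and were named after their values were seen. Some genes that meet the rule, and a probe sequence, are not reported here. Alternatives were normexp (offset 50), quantile normalization, 2 other scalings, outlier spots kept, the deposited value table, the median over a gene's probes, 2 filters on dim probes, and 1.5-fold and 4-fold.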

Additional observations from a re-analysis of the deposited data

How the results depend on the processing

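No member past 2-fold changed sign in any setting that gave it a value. For all genes only counts and the median were recomputed, so the signs of single genes were not followed. Of the recomputed values of the members and of all genes, 114 stayed within their technical error or, for counts, within 1.5 times, and 19 did not. Normexp moved Ecrg4 to 2.21, Lmnb1 to 1.78, Rb1 to 0.98 and Tert to -0.34, so Rb1 and Tert lay within 2-fold. For Tert, with signals below the offset of 50 on both arrays, that outcome was nearly fixed in advance. Quantile normalization moved Cdkn1a to -0.35, Trp53 to -0.24, Glb1 to 0.31, Hmga2 to -0.69 and Tert to -1.80. The member count higher in VZ/SVZ was 0 with normexp, and 0 over probes bright on both arrays, where Tert has no value. Over all genes, 1268 passed 2-fold towards the neurosphere and 1470 towards VZ/SVZ with normexp. The counts were 6023 and 7839 at 1.5-fold, and 622 and 1721 at 4-fold. Towards VZ/SVZ stood 3172 over probes bright on both arrays and 7671 with no filter. Beyond the settings' own construction the cause was not tested. Of all calls 62.8% were towards VZ/SVZ, 53.7% with normexp, 51.9% with quantile normalization, 71.8% with the 75th percentile of bright probes, which moved the median of all genes by -0.15, and 55.6% over probes bright on both arrays. No paired analysis was possible because each group has 1 array. Signal over background limits the Tert probe A_55_P2745082 and the third Hmga2 probe to bounds.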
